A study of Mus musculus with 12 samples.

Results

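Thy1, Pdgfra, Pdgfrb, Cd34 and S100a4 are 5 genes used to recognise fibroblasts, and their messenger RNA was followed through Oct4 and Tet1 reprogramming of mouse cells. They were chosen by gene symbol, and each was read by 1 probe set, so they make up 5 of the 9539 genes with a value. Thy1 was probe set 10584628, Pdgfra 10522503, Pdgfrb 10456046, Cd34 10352905 and S100a4 10493812.

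Affymetrix arrays measured total RNA in 4 groups of 3 arrays. The day-1 cells were fibroblasts taken from mice that had been generated from iPS cells of this kind. They carried OG2-GFP/Rosa26-M2rtTA, were at passage 3, and had received doxycycline in ES medium for 1 day. The iPS cells were line OT#b, induced with Oct4 and Tet1, of the same background at passage 10. The ES cells were line R1 from strain 129 at passage 20. The uninduced fibroblasts were at passage 3, and their labels read OG2-GFP with Rosa26-M2rtTA, Rosa26-M3rtTA and Rosa26-M4rtTA on replicates 1, 2 and 3. OG2-GFP is a green reporter driven by Oct4 sequence, and rtTA is the protein that doxycycline activates to switch on a transgene. The iPS and ES groups are 1 line each and differ in strain and passage as well as in origin. Both were grown on mitomycin C treated embryonic fibroblasts, and the labels describe a replating step of 0.5 h to remove these feeders for ES cells.

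Fibroblasts make and organise connective tissue, and they lose their surface antigens and matrix genes as they convert to the pluripotent state. Thy1 is a surface glycoprotein held in the membrane by a lipid anchor, and in the mouse it is also carried by T cells and neurons. Pdgfra and Pdgfrb encode the receptor tyrosine kinases for platelet-derived growth factors, which drive growth and movement of mesenchymal cells. Cd34 is a sialomucin of blood progenitors and endothelium that many tissue fibroblasts also carry. S100a4, called fibroblast-specific protein, is a calcium-binding protein that binds non-muscle myosin and is also found in macrophages.

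Values are log2 signals, so a difference of 1 is a 2-fold change. A gene was called changed in a comparison when limma, fitted over all 12 arrays and 9539 genes, gave a Benjamini-Hochberg adjusted p under 0.05 and a difference of at least 2-fold. Differences are given with their standard error from that fit. Nothing in the labels states that the replicate arrays are separate cultures. The p-values therefore cover the variation among these samples alone, which may be technical. Within groups, arrays correlated at 0.988 to 0.997 over the 9539 genes. Array medians were 8.25 to 8.29 in day-1 cells, 7.98 to 8.06 in iPS cells, 7.89 to 7.98 in ES cells and 8.25 to 8.29 in fibroblasts. The median gene differed by -0.35 in iPS cells against fibroblasts and by -0.35 in ES cells against fibroblasts, so the differences of the 5 markers are to be read relative to that shift.

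The cells were checked against marker lists. Over 10 pluripotency genes the mean log2 level of an array was 6.17 to 6.21 in day-1 cells, 11.48 to 11.52 in iPS cells, 11.89 to 11.95 in ES cells and 5.24 to 5.56 in fibroblasts. Over 15 fibroblast genes, mostly collagens and other matrix proteins, it was 11.24 to 11.31 in day-1 cells, 9.73 to 9.80 in iPS cells, 8.33 to 8.78 in ES cells and 11.34 to 11.58 in fibroblasts. ES replicate 2 gave the 8.78 and stood above the other ES arrays at 8.33 and 8.36. Macrophage genes, of which 8 were measured, averaged 7.17 to 7.34, 6.29 to 6.32, 6.20 to 6.27 and 7.45 to 7.66 in the same order of groups. These are bulk samples, in which fewer cells of a type and less RNA per cell cannot be told apart. Among the 10 pluripotency genes only Pou5f1, which encodes Oct4, was called in day-1 cells against fibroblasts, and 9 were not. Pou5f1 averaged 11.79 in day-1 cells and 5.04 in fibroblasts, so it weighs on the day-1 mean of that list.

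RefSeq promoters of build GRCm38.p6, from 250 bases before to 50 bases after the gene start, are shown for 3 of the 5 genes. Pdgfrb was left out of the promoter search beforehand, and Thy1 had no match. The 3 promoters include Pdgfra and Cd34, the markers called at day 1, and S100a4, which had the largest differences of the 5 in the pluripotent lines. They are written 5′ to 3′ on the + strand in lower case, with a TATAAA motif in capitals.
Pdgfra chr5:75152001-75152300: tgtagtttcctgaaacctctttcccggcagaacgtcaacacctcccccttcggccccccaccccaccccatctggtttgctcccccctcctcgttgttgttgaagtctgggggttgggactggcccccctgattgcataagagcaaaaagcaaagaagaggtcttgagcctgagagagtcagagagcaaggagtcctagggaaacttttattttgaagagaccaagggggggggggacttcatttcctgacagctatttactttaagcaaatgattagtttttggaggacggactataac
Cd34 chr1:194938571-194938870: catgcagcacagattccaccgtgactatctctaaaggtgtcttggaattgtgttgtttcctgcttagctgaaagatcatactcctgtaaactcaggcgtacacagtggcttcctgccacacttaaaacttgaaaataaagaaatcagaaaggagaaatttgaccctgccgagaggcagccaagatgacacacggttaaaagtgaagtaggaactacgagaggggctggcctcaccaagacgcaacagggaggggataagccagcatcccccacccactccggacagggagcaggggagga
S100a4 chr3:90603520-90603819: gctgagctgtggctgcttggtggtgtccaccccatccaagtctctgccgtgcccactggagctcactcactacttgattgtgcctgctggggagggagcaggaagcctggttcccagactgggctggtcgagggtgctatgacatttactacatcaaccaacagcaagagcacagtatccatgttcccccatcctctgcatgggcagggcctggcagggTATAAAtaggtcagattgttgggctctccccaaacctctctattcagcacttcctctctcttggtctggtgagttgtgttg

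The 3 promoters differed in base composition. S100a4 held 2 CpG dinucleotides, and 14.1% of 32851 RefSeq promoters held fewer. Pdgfra held 5 and Cd34 held 7, against a median of 7 over all promoters. TATAAA was found in S100a4 alone of the 3, starting at base -31 on the + strand, and 13.6% of all promoters of this length hold it on one strand or the other. Other motifs searched on both strands had a match in 0 of the 3 windows. They were the GC box GGGCGG, held by 35.7% of all promoters, and the CCAAT box, held by 37.4%. The E-box CACCTG was held by 20.2%, and the AP-1 motif TGANTCA by 7.81%.

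In day-1 cells Pdgfra and Cd34 were called lower than in fibroblasts. That is 2 of 5 genes, where 4.33% of all 9539 genes were called lower. None of the 5 was called higher, where 3.46% of all genes were, although Thy1 lay above its fibroblast level with an unadjusted p under 0.05. The median difference of the 5 was -0.44, and that of all genes 0.05. Day-1 cells are also described with iPS-derived mice and ES medium, and the rtTA labels vary among the fibroblasts. A part of doxycycline alone therefore cannot be told apart.

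Pdgfra, the receptor for PDGF A, B and C chains, read 9.93, 9.83 and 9.82 in day-1 cells, against 10.78, 11.12 and 11.16 in fibroblasts. The arrays of the groups did not overlap, with all day-1 arrays low. Its difference was -1.16 ± 0.12, a 2.23-fold lower level, with a limma adjusted p of 4.8e-06. Of all genes, 3.35% had a lower difference.

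Cd34 was the other marker called lower. It read 8.96, 8.62 and 8.76 in day-1 cells, against 9.93, 9.99 and 10.11 in fibroblasts, and all day-1 arrays lay below all fibroblast arrays. The difference of -1.23 ± 0.11 was 2.34-fold, with a limma adjusted p of 1e-06, and 2.97% of genes had a lower one.

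Pdgfrb and S100a4 differed by less than 2-fold. Pdgfrb, the receptor for PDGF B and D chains, read 11.05, 11.07 and 11.07 in day-1 cells, against 11.47, 11.50 and 11.54 in fibroblasts. The 3 day-1 arrays lay together below the 3 fibroblast arrays, and the difference was -0.44 ± 0.12 with a limma adjusted p of 0.0065. S100a4 read 11.21, 11.26 and 11.39 in day-1 cells, against 11.79, 11.71 and 11.59 in fibroblasts. These groups also did not overlap, and the difference was -0.41 ± 0.16 with a limma adjusted p of 0.042. Leaving out any 1 array of either group put that p for S100a4 at 0.051 to 0.11.

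Thy1 stood on the other side of zero. It read 12.20, 12.14 and 12.12 in day-1 cells, against 11.78, 11.77 and 11.68 in fibroblasts. Every day-1 array was above every fibroblast array, by a mean of 0.41 ± 0.13 or 1.33-fold, with a limma adjusted p of 0.018. That p was 0.056 without day-1 replicate 1 and 0.058 without fibroblast replicate 3. A higher difference was seen for 18.5% of all genes. The arrays of day-1 cells and fibroblasts did not overlap for all 5 markers, as was the case for 67.3% of all genes, and 57.1% of all genes passed the adjusted p alone.

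**Figure D1:**
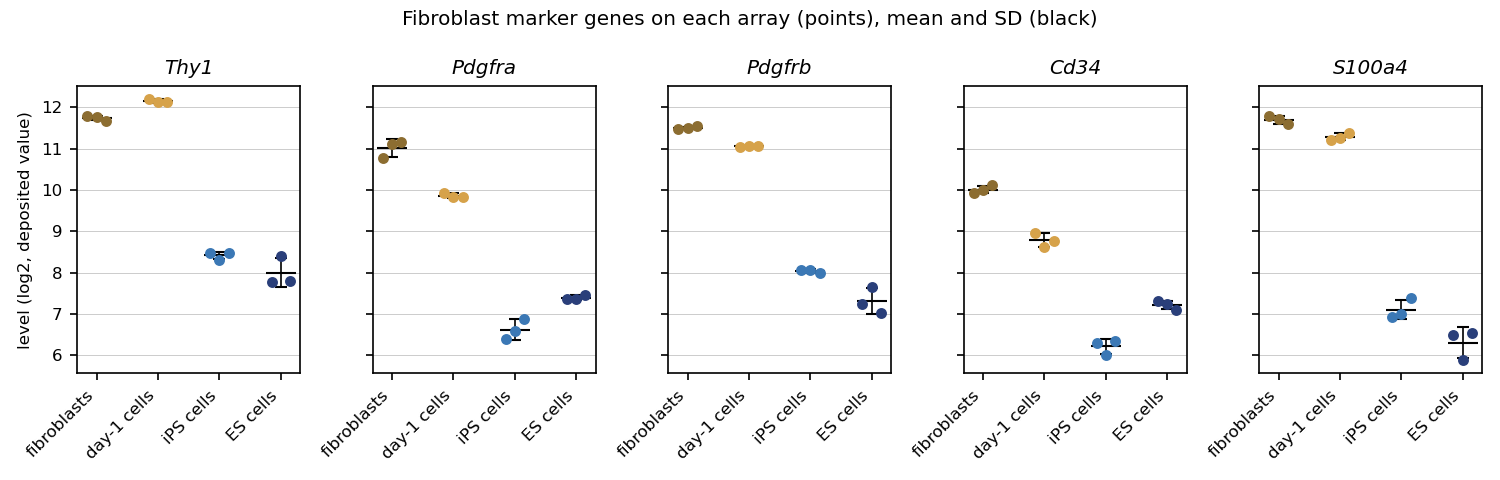
Log2 signal of the 5 markers on each array, in the order fibroblasts, day-1, iPS and ES; points are arrays and lines are the mean ± SD of 3 arrays. Thy1 averages 12.15 in day-1 cells and 11.74 in fibroblasts, whereas Pdgfra averages 9.86 in day-1 cells and 11.02 in fibroblasts.

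Markers of other cells that carry these antigens were measured in the same arrays. Neuron genes, of which 4 of 8 were measured, averaged 8.02 to 8.14 in day-1 cells and 6.08 to 6.39 in fibroblasts, and all 4 (Map2, Nefl, Nefm and Stmn2) were called higher in day-1 cells. Over all genes, 3.46% were called higher. The same list averaged 7.96 to 8.02 in iPS cells and 7.84 to 8.0 in ES cells, where Thy1 averaged 8.42 and 8.0. Nefl and Stmn2 were also called higher in both lines than in fibroblasts. The part of neuron genes in the Thy1 level was not tested. The Stmn2 call ended without day-1 replicate 2 (0.98), fibroblast replicate 2 (0.96) or fibroblast replicate 3 (0.94). Of 9 T-cell genes listed, 0 are among the genes analysed here.

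For Pdgfrb the other cell types of interest are pericytes and smooth muscle, which depend on this receptor. Their 8 measured genes averaged 9.72 to 9.80 in day-1 cells and 8.79 to 9.02 in fibroblasts, and Cspg4, Des, Myh11 and Mcam were called higher while Pdgfrb lay lower. The other 4 were not called. In day-1 cells against fibroblasts Notch3 averaged 7.02 against 7.38 and Acta2 13.12 against 13.11. Tagln averaged 11.95 against 11.79 and Cnn1 11.82 against 11.07. Over all genes, 3.46% were called higher and 4.33% lower at day 1. For Cd34, 4 of 12 listed endothelial genes and 6 of 9 listed blood progenitor genes were measured. None was called by limma, with 2 endothelial and 3 blood progenitor genes at an unadjusted p under 0.05. Among all genes, 57.1% passed even the adjusted p alone. For S100a4, 3 of 8 macrophage genes (Adgre1, Cd14 and Lyz2) were called lower in day-1 cells and 1 (C1qb) higher. The Lyz2 call, at -1.03, ended without the same 3 arrays, at -0.99, -0.98 and -0.96. The part of these cells in the marker levels was not tested.

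In both pluripotent lines all 5 markers were far below fibroblasts. In iPS cells 5 of 5 fell, where 29.6% of all genes were called lower and 21.8% higher, and their median difference was -3.79 against -0.35 over all genes. In ES cells 5 of 5 fell, where 32.1% of all genes were called lower and 23.4% higher, with medians of -3.75 and -0.35. With arrays centred on a common median, the share of calls that were higher became 55.9% in iPS cells (42.4% as reported) and 58.7% in ES cells (42.2%), and the 5 markers stayed called lower. Arrays did not overlap for all 5 in either comparison, as for 94% of all genes in each.

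S100a4 had the largest difference of the 5 in each line. It read 6.94, 7.0 and 7.38 in iPS cells and 6.50, 5.88 and 6.55 in ES cells, against a fibroblast mean of 11.70 ± 0.10 (SD, n = 3 arrays). Every pluripotent array lay more than 4 log2 units below the fibroblasts. It fell in both, with a log2 difference of -4.59 ± 0.16 in iPS cells, or 24.1-fold (limma adjusted p 1.4e-11), and of -5.39 ± 0.16 in ES cells, or 42.0-fold (limma adjusted p 2.4e-12). Only 0.147% of genes had a lower difference in ES cells, and 0.43% in iPS cells.

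Pdgfra read 6.39, 6.58 and 6.88 in iPS cells and 7.37, 7.36 and 7.45 in ES cells, against a fibroblast mean of 11.02 ± 0.21 (SD, n = 3 arrays). The iPS arrays were lower than all ES arrays. It fell in both, with a log2 difference of -4.40 ± 0.12 in iPS cells, a 21.2-fold lower level (limma adjusted p 2.1e-12), and of -3.62 ± 0.12 in ES cells, 12.3-fold (limma adjusted p 6.5e-12).

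Pdgfrb showed the other order of the pluripotent lines. It read 8.06, 8.06 and 7.99 in iPS cells and 7.25, 7.65 and 7.02 in ES cells, against a fibroblast mean of 11.50 ± 0.03 (SD, n = 3 arrays). All iPS arrays were above all ES arrays and below all fibroblast arrays. It fell in both, with a log2 difference of -3.47 ± 0.12 in iPS cells, 11.1-fold (limma adjusted p 1.1e-11), and of -4.20 ± 0.12 in ES cells, 18.3-fold (limma adjusted p 1.5e-12).

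Cd34 read 6.29, 6.01 and 6.34 in iPS cells and 7.32, 7.24 and 7.11 in ES cells, against a fibroblast mean of 10.01 ± 0.09 (SD, n = 3 arrays). Here the iPS arrays were again the lowest. It fell in both, with a log2 difference of -3.79 ± 0.11 in iPS cells, 13.9-fold (limma adjusted p 2.9e-12), and of -2.79 ± 0.11 in ES cells, 6.9-fold (limma adjusted p 2.5e-11).

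Thy1 read 8.47, 8.31 and 8.47 in iPS cells and 7.78, 8.40 and 7.81 in ES cells, against a fibroblast mean of 11.74 ± 0.05 (SD, n = 3 arrays). The iPS and ES arrays overlapped, because ES replicate 2 lay among the iPS arrays. It fell in both, with a log2 difference of -3.33 ± 0.13 in iPS cells, 10-fold (limma adjusted p 4.4e-11), and of -3.75 ± 0.13 in ES cells, 13.4-fold (limma adjusted p 1.1e-11).

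Set against day-1 cells, the pluripotent lines again had all 5 lower. In iPS cells 5 of 5 fell where 26.6% of all genes were called lower and 17.6% higher, with differences of -4.18 for S100a4 to -2.57 for Cd34 and a median of -3.24. In ES cells 5 of 5 fell where 29.5% of all genes were called lower and 20.4% higher, with differences of -4.98 for S100a4 to -1.56 for Cd34 and a median of -3.76. Cd34 in ES cells was therefore the narrowest gap, 2.95-fold below day-1 cells with a limma adjusted p of 9.9e-09. Centring the arrays on a common median turned the share of calls that were higher to 55.3% in iPS against day-1 cells (39.8% as reported) and to 58.3% in ES against day-1 cells (40.9%), with all 5 markers still called lower. These comparisons share arrays with those above and do not stand as separate evidence.

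**Figure D2:**
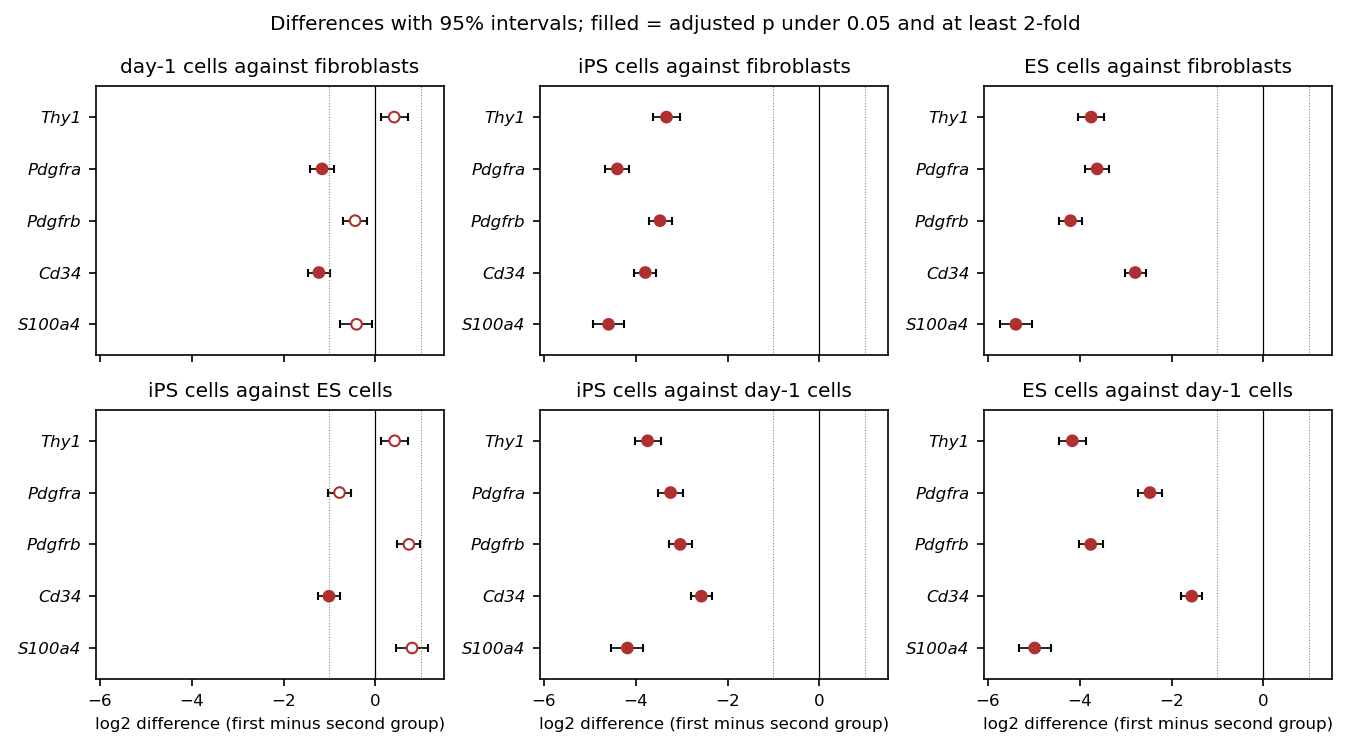
Log2 differences of the 5 markers in the 6 comparisons, with bars for the 95% confidence interval of the limma fit and filled points for called genes. Every difference of a pluripotent line from fibroblasts or day-1 cells lies at -1.56 or lower, whereas those between day-1 cells and fibroblasts run from -1.23 to 0.41.

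Ordered from high to low, the means of Pdgfrb and S100a4 ran fibroblasts, day-1, iPS and ES. Those of Pdgfra and Cd34 ran fibroblasts, day-1, ES and iPS, and those of Thy1 day-1, fibroblasts, iPS and ES. All neighbours in these orders passed the adjusted p, but 7 gaps were under 2-fold. These were day-1 cells and fibroblasts for Thy1, Pdgfrb and S100a4, and the iPS and ES lines for Thy1, Pdgfra, Pdgfrb and S100a4.

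Between the pluripotent lines, Cd34 was called lower in iPS cells, which is 1 of 5 markers where 2.45% of all genes were called lower and 4.44% higher. Of all calls, 64.4% were higher, or 51.4% with arrays centred on a common median. Its difference was -1.01 ± 0.11, or 2.01-fold, with a limma adjusted p of 6.4e-06, and the fold stood at the edge of the threshold. The call ended without iPS replicate 2 (-0.90), ES replicate 1 (-0.96) or ES replicate 2 (-1.0). Pdgfra differed in the same direction by -0.78 ± 0.12 (limma adjusted p 0.00013), under 2-fold.

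The other 3 markers lay higher in iPS cells, each by less than 2-fold. The differences were 0.80 ± 0.16 for S100a4 (limma adjusted p 0.00095), 0.73 ± 0.12 for Pdgfrb (0.00018) and 0.42 ± 0.13 for Thy1 (0.016). For Thy1 the limma adjusted p was 0.075 without ES replicate 1 and 0.071 without ES replicate 3. Arrays did not overlap for 4 of the 5 markers, Thy1 being the exception, as for 61.5% of all genes, and 57.7% of all genes passed the adjusted p alone.

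Beside these differences stood those of the fibroblast list, from which the 5 markers were left out. In iPS cells against ES cells 10 of its 15 genes were called higher and 1 lower, with a median of 1.5 against 0.01 over all genes. Over all genes, 4.44% were called higher and 2.45% lower. Col1a2, a chain of type I collagen, averaged 11.98 ± 0.02 in iPS cells and 9.38 ± 0.31 in ES cells, a difference of 2.60 ± 0.12 (SE), and in fibroblasts it averaged 11.78 ± 0.11 (SD, n = 3 arrays each). Lox, which cross-links collagen, averaged 11.17 in iPS cells, 8.14 in ES cells and 12.76 in fibroblasts. Postn, with the largest range of group means on the list, averaged 9.47 in iPS cells, 6.73 in ES cells and 12.41 in fibroblasts.

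Decorin ran the other way. Dcn, a small proteoglycan that binds collagen, averaged 7.31 ± 0.18 in iPS cells and 9.39 ± 0.11 in ES cells, a difference of -2.08 ± 0.12 (SE), against 12.92 ± 0.21 in fibroblasts (SD, n = 3 arrays each). Lum, a related proteoglycan, averaged 5.20 in iPS cells, against 5.77 in ES cells, and was not called. Pdgfra and Cd34 thus had the sign of Dcn between the lines, while Pdgfrb, S100a4 and Thy1 had the sign of Col1a2. The part of feeder cells in these levels was not tested. ES replicate 2, with the highest fibroblast list level of the ES arrays, also gave the highest ES values of Thy1 and Pdgfrb but the lowest of S100a4. Without it the differences between the lines were 0.62 for Thy1, -0.80 for Pdgfra, 0.90 for Pdgfrb, -1.0 for Cd34 and 0.58 for S100a4.

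The pericyte and smooth muscle list averaged 9.09 to 9.12 in iPS cells and 7.71 to 7.98 in ES cells, with 5 of 8 genes called higher and 0 lower, beside the higher Pdgfrb. The endothelial list averaged 7.78 to 7.80 in iPS cells and 7.39 to 7.54 in ES cells beside the lower Cd34. None of its 4 measured genes was called by limma, with 4 at an unadjusted p under 0.05, 3 higher and 1 lower. Pecam1 averaged 9.19 in iPS cells, 8.24 in ES cells and 5.23 in fibroblasts. Tek averaged 6.45, 6.80 and 6.10 in the same order. Among all genes, 57.7% passed even the adjusted p alone between the lines. The part of these cell types was not tested.

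**Figure D3:**
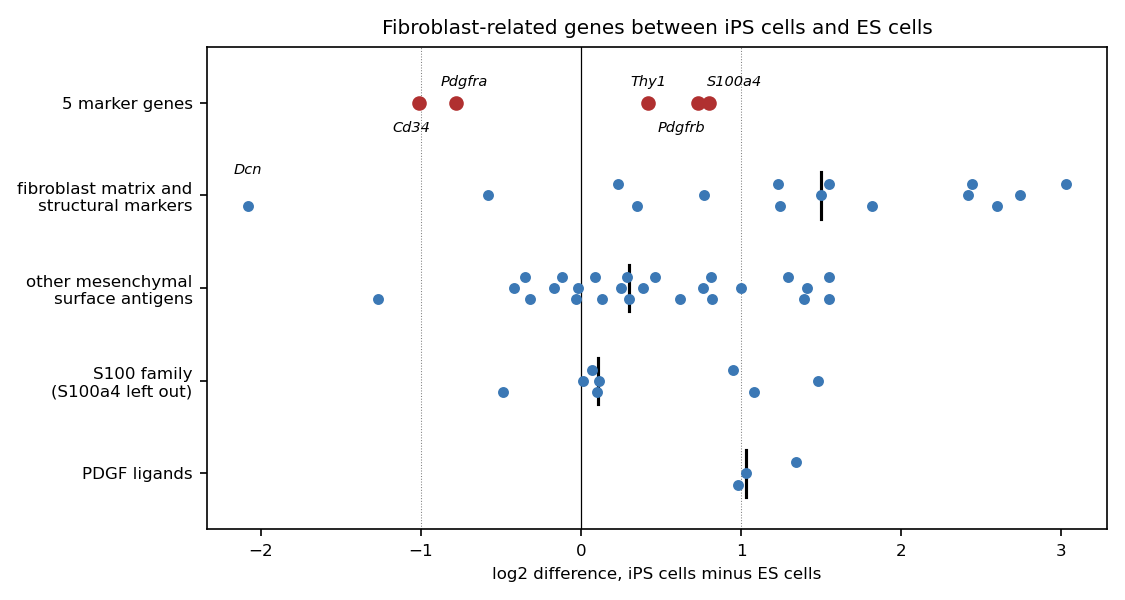
Log2 difference of iPS cells minus ES cells for the 5 markers, 15 fibroblast genes, 25 other mesenchymal surface antigens, the S100 family without S100a4 and 3 PDGF ligands; points are genes and bars are medians. The fibroblast genes have a median of 1.5, and Dcn is the labelled gene at -2.08.

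The balance of the PDGF receptors was followed within each array as Pdgfra minus Pdgfrb, a difference of signals from different probe sets that is read only as a change between groups. It was -1.12, -1.24 and -1.25 in day-1 cells, against -0.69, -0.38 and -0.38 in fibroblasts. In iPS cells it was -1.66, -1.48 and -1.11, against 0.12, -0.29 and 0.43 in ES cells. No array of one group of either pair lay within the other.

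The mean of this measure changed by -0.72 in day-1 cells and by -0.93 in iPS cells relative to fibroblasts, by 0.57 in ES cells relative to fibroblasts, and by -1.51 in iPS cells relative to ES cells. Each had an exact two-sided permutation p of 0.10, the smallest that 3 arrays against 3 can give. Between iPS and day-1 cells the change was -0.22 with an exact permutation p of 0.40.

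The ligands of these receptors moved less uniformly. Of 4 PDGF genes, 3 were measured, and Pdgfd, whose product binds the beta receptor, was the only one called at day 1, with a difference of -1.01 ± 0.20 (limma adjusted p 0.00087). That call ended without day-1 replicate 2, fibroblast replicate 2 or fibroblast replicate 3. Pdgfd differed from fibroblasts by -2.90 in iPS cells and by -3.93 in ES cells. Pdgfc, whose product binds the alpha receptor, was called in ES cells at -1.96 and not in iPS cells at -0.62. Both were called higher in iPS cells than in ES cells, Pdgfc by 1.34 ± 0.13 and Pdgfd by 1.03 ± 0.20. The Pdgfd call between the lines ended without iPS replicate 2 (0.94), ES replicate 1 (0.90) or ES replicate 3 (0.86). Pdgfa was called in none of the 6 comparisons and differed from fibroblasts by 0.11 in iPS cells and -0.86 in ES cells.

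Downstream of the receptors, 23 of 34 listed signal carriers were measured. Against fibroblasts, 13 fell and 3 rose in iPS cells, and 12 fell and 3 rose in ES cells, with medians of -1.03 and -1.01 where all genes had -0.35 in both. Over all genes, 29.6% were called lower and 21.8% higher in iPS cells, and 32.1% lower and 23.4% higher in ES cells. Jak2, a tyrosine kinase, differed by -2.55 ± 0.18 in iPS cells and -3.34 in ES cells. Pik3r1, a regulatory subunit of phosphoinositide 3-kinase, differed by -1.97 ± 0.08 and -2.80 in the same lines.

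The 3 that rose in both lines were Gab1, Pik3cb and Yes1. Gab1, a docking protein below receptor kinases, rose by 1.88 ± 0.07 in iPS cells and by 2.49 in ES cells. Pik3cb, a catalytic subunit of phosphoinositide 3-kinase, rose by 1.97 and 2.08, and Yes1, a Src family kinase, by 2.06 and 2.13. At day 1 none of the 23 was called by limma, with 10 at an unadjusted p under 0.05, and between iPS and ES cells none was called, with 14 at an unadjusted p under 0.05. Over all genes, 57.1% at day 1 and 57.7% between these lines passed even the adjusted p alone.

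Of 6 other receptor kinases of classes III and V listed, 4 were measured, and against fibroblasts 1 rose and 2 fell in each pluripotent line. The shares over all genes were 21.8% higher and 29.6% lower in iPS cells, and 23.4% higher and 32.1% lower in ES cells. Kit, of class III like the PDGF receptors, the stem cell factor receptor, is the gene next to Pdgfra in the RefSeq order of GRCm38.p6. It read 10.03, 10.03 and 10.11 in iPS cells and 10.17, 10.25 and 9.97 in ES cells, against 5.65, 5.80 and 5.51 in fibroblasts. Every pluripotent array was far above every fibroblast array, and the rise was 4.40 ± 0.10 in iPS cells (limma adjusted p 6.6e-13) and 4.48 in ES cells (limma adjusted p 4e-13). In day-1 cells Kit read 5.53, 5.88 and 5.62, overlapping the fibroblasts, with a difference of 0.02. Where Pdgfra was 21.2-fold lower in iPS cells than in fibroblasts, its neighbour Kit was 21.2-fold higher. The other measured genes within 3 places of Pdgfra, Chic2 and Srd5a3, were lower in iPS cells than in fibroblasts, by -2.62 and -2.13.

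Csf1r, the class III receptor of macrophage colony-stimulating factor, is the gene next to Pdgfrb in the same order. It read 5.48, 5.38 and 5.45 in iPS cells and 5.61, 5.28 and 5.42 in ES cells, against 6.68, 6.41 and 6.50 in fibroblasts. It was lower on all pluripotent arrays, by -1.09 in each line (limma adjusted p 7.1e-08 in iPS cells and 6.2e-08 in ES cells), a smaller difference than the -3.47 and -4.20 of Pdgfrb. Flt4, a class V receptor of lymphatic endothelium, was called lower at -1.60 in iPS cells and at -1.14 in ES cells. Flt1 was not called.

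Podxl, podocalyxin, is a sialomucin of the Cd34 family. It read 7.30, 7.38 and 7.33 in iPS cells and 7.81, 7.59 and 7.74 in ES cells, against 5.37, 5.72 and 5.70 in fibroblasts. All pluripotent arrays were above all fibroblast arrays, opposite to Cd34. Podxl rose by 1.74 ± 0.10 in iPS cells (limma adjusted p 1.2e-09) and by 2.12 in ES cells (limma adjusted p 1.3e-10). In day-1 cells it read 5.69, 5.87 and 5.82, a difference of 0.20 that was not called.

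Other S100 genes fell with S100a4. Of 16 listed, 9 were measured including S100a4, and 7 fell in iPS cells and 8 in ES cells against fibroblasts, with medians of -1.81 and -2.16. S100a4 is within these counts and medians. Besides it, S100a1, S100a6, S100a10, S100a11, S100a16 and S100b were called lower in both lines, and S100a13 in ES cells. Over all genes, 29.6% were called lower in iPS cells and 32.1% in ES cells. S100a1, a calcium-binding protein best known from muscle, differed by -3.31 in iPS cells and -3.32 in ES cells. S100a6, calcyclin, differed by -2.08 and -3.56, and it was called higher in iPS cells than in ES cells by 1.48 ± 0.14. S100a13 was also called there, at 1.08 ± 0.09. At day 1 none of the 9 was called by limma, with 5, S100a4 among them, at an unadjusted p under 0.05, all of them lower. Even the adjusted p alone was passed there by 57.1% of all genes.

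**Figure D4:**
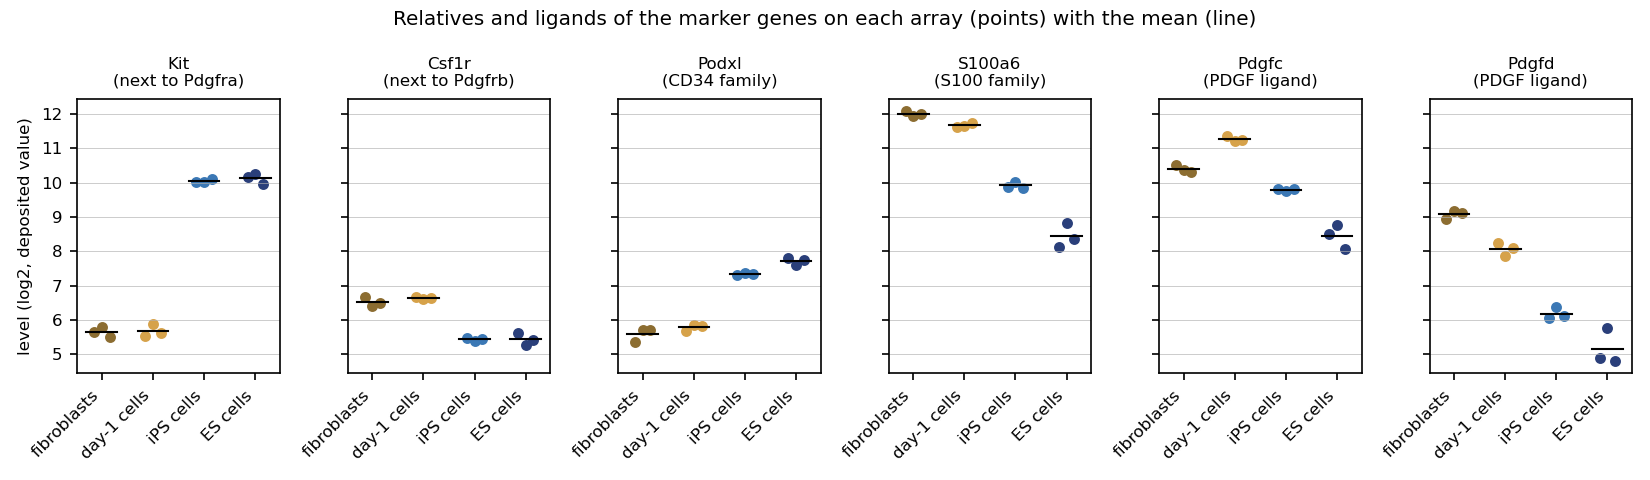
Log2 signal on each array of Kit, Csf1r, Podxl, S100a6, Pdgfc and Pdgfd, in the order fibroblasts, day-1, iPS and ES. Points are arrays and lines are the mean of 3 arrays. Kit reads 10.03 to 10.11 in iPS cells and 5.51 to 5.80 in fibroblasts, and Podxl 7.30 to 7.38 in iPS cells and 5.37 to 5.72 in fibroblasts.

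A list of other surface antigens of mesenchymal cells was set beside the 5 markers. Of 28 listed, 25 were measured, and against fibroblasts 16 fell and 3 rose in iPS cells, and 15 fell and 4 rose in ES cells. Over all genes, 29.6% were called lower and 21.8% higher in iPS cells, and 32.1% lower and 23.4% higher in ES cells. The medians of the 25 antigens, -1.28 in iPS cells and -1.97 in ES cells, were nearer to zero than those of the 5 markers. Il1r1, the interleukin 1 receptor, differed by -4.45 ± 0.14 in iPS cells and -4.58 in ES cells. Vcam1, an adhesion molecule, differed by -3.69 ± 0.13 in iPS cells and -4.51 in ES cells. Dpp4, Mcam and Cd9 rose in iPS cells, and these and Ngfr rose in ES cells.

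At day 1, 2 of the 25 antigens were called lower and 2 higher, where 4.33% of all genes were called lower and 3.46% higher. Bst1, a surface enzyme, differed by -3.2 and Nt5e, the ectonucleotidase CD73, by -1.01. The Nt5e call ended without day-1 replicate 2 (-0.95), fibroblast replicate 2 (-0.98) or fibroblast replicate 3 (-0.93). Mcam and Cspg4 were higher by 2.20 and 1.32. Between the pluripotent lines, 6 were called higher in iPS cells, among them Cd44, a hyaluronan receptor, at 1.55 ± 0.17 and Ddr2, a collagen receptor, at 1.29 ± 0.10, and 1 was called lower, the aminopeptidase Anpep at -1.27. The shares over all genes were 4.44% higher and 2.45% lower.

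Among the 5 markers the patterns over the 12 arrays, each gene taken relative to its own mean, were most alike for Thy1 and Pdgfrb, with a root mean square difference of 0.34 log2 units. Pdgfra and Cd34 followed at 0.41. Cd34 and S100a4 were the least alike at 1.28. Pdgfra and Pdgfrb lay between at 0.63, so each receptor was nearer to another marker than to its partner.

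The same measure over 9163 other genes named the 5 most like each marker. For Thy1 the nearest was Cdh2, the adhesion protein N-cadherin, at 0.11, followed by Snx7, Lclat1, Tgfb1i1 and Loxl3, the last at 0.20. Cdh2 averaged 11.32 in day-1 cells, 7.75 in iPS cells, 7.27 in ES cells and 11.04 in fibroblasts, the order seen for Thy1. For Pdgfrb the nearest were Slit2, a secreted guidance protein, and Pla2g4a, a phospholipase, both at 0.12, then Thbs2, Rhoq and Serpinf1, the last at 0.15.

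For Pdgfra the nearest genes were Il1rap, Mgst1, Gzme, Tgfbr3 and Calcrl, at 0.23 to 0.26. Il1rap, a subunit of the interleukin 1 receptor, averaged 9.05 in day-1 cells, 6.27 in iPS cells, 6.59 in ES cells and 10.47 in fibroblasts. For Cd34 they were Stox2, Selenop, Dennd4a, Gstk1 and Rin2, at 0.20 to 0.30, and for S100a4 Csgalnact1, Il1rl2, Antxr1, Casp8 and Casp12, at 0.29 to 0.35. The likeness is a description over arrays that share the same 4 groups.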

How the data were processed

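The authors deposited 1 table of log2 values, 1 column per array, for 10360 Affymetrix probe sets labelled, per the labels, with the WT Terminal Labeling Kit. That the scale is log2 was read from the values (2.43 to 13.64). The normalization and probe set filter are named in no source used here. The smallest range of any probe set over the arrays was 0.51, so a gene that varied little may not be listed. The platform annotation gave 1 symbol to 9542 probe sets, several to 344 and none to 474; of the 3 genes with several, the probe set of highest mean was used, leaving 9539 genes. limma 3.58.1 in R 4.3.3 fitted group means over all 12 arrays with eBayes and Benjamini-Hochberg adjustment over 9539 genes. Calls needed an adjusted p under 0.05 and at least 2-fold. Array number limits the precision. The genes, lists and tests were chosen with earlier results of these data known. Named genes were the 5 markers, list genes with the largest range of group means, and genes near the PDGF receptor genes in RefSeq order. For each marker the 5 genes of smallest root mean square difference were also named. Other list genes, Col1a2 among them, and genes named within small counts were named after their values were seen. Alternatives were other scalings, weights, filters, designs and leaving out each array.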

Additional observations from a re-analysis of the deposited data

How the results depend on the processing

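Over 30 results (5 markers in 6 comparisons) and 22 alternative settings, 646 of 660 values kept their direction and their side of the threshold, 7 lost the call, 7 gained it and 0 reversed. Without a fold minimum, 5 markers passed in day-1 cells against fibroblasts, adding Thy1 (0.41), Pdgfrb (-0.44) and S100a4 (-0.41), and 5 passed in iPS against ES cells, adding Thy1 (0.42), Pdgfra (-0.78), Pdgfrb (0.73) and S100a4 (0.80). With limma's treat, which tests against 2-fold itself, 0 passed in day-1 cells against fibroblasts (Pdgfra -1.16, Cd34 -1.23) and 0 in iPS against ES cells (Cd34 -1.01). Array weights gave Cd34 -1.0 between the pluripotent lines, with 0 markers called. Leaving out 1 array at a time, that Cd34 difference ran from -1.07 to -0.90, with 0 to 1 markers called. With a replicate block, which the labels' numbering allows, it was -1.01 (limma adjusted p 1.7e-05), and the block changed no marker call. Same-numbered arrays deviated together at r -0.208 to 0.064 over 18 pairs, none above 0.1. Of 12 arrays, 1 correlated best with its own number, so no shared deviation by number was seen. In day-1 cells against fibroblasts 743 of all genes were called, 5449 without the fold minimum and 315 with treat; in iPS against ES cells these counts were 658, 5502 and 226. Without the fold minimum 8985 were called in iPS cells against fibroblasts (4897 with it), 9050 in ES cells against fibroblasts (5299), 8851 in iPS against day-1 cells (4216) and 8914 in ES against day-1 cells (4763). Centring the arrays on a common median moved the share of calls that were higher to 55.9% in iPS cells against fibroblasts (42.4% as reported), to 58.7% in ES cells against fibroblasts (42.2%), to 51.4% in iPS against ES cells (64.4%), to 55.3% in iPS against day-1 cells (39.8%) and to 58.3% in ES against day-1 cells (40.9%). The markers then ran from -4.34 to -3.08, from -5.05 to -2.44, from -1.10 to 0.71, from -3.93 to -2.31 and from -4.63 to -1.21. The number of arrays and the unstated normalization limit the precision.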
